A study of Mus musculus with 764 samples.

Results

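Receptor-rich cells are the IL-10-producing CD4+ T cells in which reads of several co-inhibitory receptor genes were found in the same cell. They were chosen by their own reads. A cell with at least 160000 reads over gene rows and no Foxp3 read was receptor-rich when at least 1 read was present for 4 or more of Pdcd1 (PD-1), Lag3, Tigit, Havcr2 (TIM-3) and Itga2 (CD49b), and receptor-poor when 3 or fewer of these 5 genes had a read. Of 764 cells, 530 passed the limits on reads and Foxp3, and 38.7% of these 530 were receptor-rich. They were 88 of 160 small intestine cells and 31.6% of 370 spleen cells, so that 57.1% of receptor-rich cells came from the spleen.

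The cells came from IL-10eGFP Foxp3mRFP double reporter mice, in which a green fluorescent protein marks cells that use the Il10 gene and a red one marks cells that use Foxp3, the defining factor of classical regulatory T cells. Both tissues carried both reporters and came from mice given anti-CD3, an antibody that activates T cells through their antigen receptor, and no untreated cell was among the samples. The mice were age-matched littermates by the study's methods. Libraries were made by SMART-seq2, which reads whole cDNA and adds no molecular identifiers. Small intestine lymphocytes were taken from the epithelium by EDTA and from the lamina propria by collagenase, and the labels do not tell these compartments apart. The labels name no animal, so each tissue is 1 sample, no comparison between tissues has a replicate check, and no p-value is given.

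Co-inhibitory receptors restrain T cells after activation. PD-1, LAG-3, TIGIT and TIM-3 are seen together on T cells that have met antigen repeatedly, and CD49b with LAG-3 has been used to recognise type 1 regulatory T cells, which make IL-10 without Foxp3. The gut holds many long-lived T cells that stay in the tissue, held by adhesion molecules such as CD103, whereas the spleen holds cells that circulate and cells that help B cells. The comparison asks how far cells with the same set of receptors resemble each other in the 2 organs, and whether receptor-rich spleen cells lie closer to the intestine than receptor-poor spleen cells do.

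Receptor-rich cells of the tissues were read to similar depth. They had a median of 320138 reads (165194 to 580400) and 3317 genes with a read in the small intestine, and 351833 reads (162801 to 622997) and 3826 genes in the spleen. Spleen cells lay on plate p1 (columns 1 to 12 and columns 13 to 24) and on plate p2. These 3 spleen sets show how far spleen cells differ from set to set, but they differed in more than plate and position. Of cells with enough reads, most on p1 columns 1 to 12 had a Foxp3 read, which left 62 gated cells. A Foxp3 read was found in only 41 such cells on p1 columns 13 to 24 and 14 on p2. The part of this makeup in differences among the sets was not tested. All small intestine cells lay in other columns of p2, so tissue and plate position cannot be told apart there. Of 6 T cell genes, Cd3e, Cd3g, Cd4 and Lck were read in 100% of receptor-rich cells of both tissues. The least often read of the 6 was found in 85.2% of receptor-rich small intestine cells and 100% of receptor-rich spleen cells. Cd2, another of the 6, was called lower in the small intestine by the rule given below.

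Markers of other cell types were also read in some cells. In receptor-rich small intestine cells 2 of 5 B cell genes (Ms4a1 among them), 3 of 6 myeloid genes (Lyz2 and C1qa among them) and 1 of 7 epithelial genes had no read. In receptor-rich spleen cells that held for 0, 1 and 3 genes. Cd79b of the B cell list was read in 13.6% of the former and 2.56% of the latter, Lgals4 of the epithelial list in 23.9% and 20.5%, and Cst3, a broadly expressed gene of the myeloid list, in 76.1% and 84.6%. The summed level per cell averaged 90.8 and 26.6 CPM for the B cell list, 257.8 and 323.1 CPM for the myeloid list, and 39.5 and 19.7 CPM for the epithelial list, where CPM, scales the reads of every cell to the same total. In single cells these sums ranged from 0 to 1132 and 2472 CPM for the B cell list. Their part in the results was not tested.

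The gate was met by different shares of cells. In the small intestine 55% of gated cells were receptor-rich (exact 95% interval 46.95 to 62.9), and in the spleen 31.6% (26.9 to 36.6). Such intervals are Clopper-Pearson and cover counting error only, since copies of 1 molecule made by PCR cannot be recognised without identifiers. Within the spleen the share was 33.9% (22.3 to 47.01) on p1 columns 1 to 12, 37.8% (29.8 to 46.25) on p1 columns 13 to 24 and 25.5% (19 to 32.8) on p2. The interval of the small intestine lies above those of all spleen cells and of the 2 larger sets, and meets that of the smallest set. After every cell was thinned to 160000 reads, the shares were 50.3% (42.4 to 58.2) in the small intestine and 31.1% (26.5 to 35.97) over all spleen cells. The interval of the small intestine then also met that of p1 columns 13 to 24 (29.8 to 45.9).

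**Figure D1:**
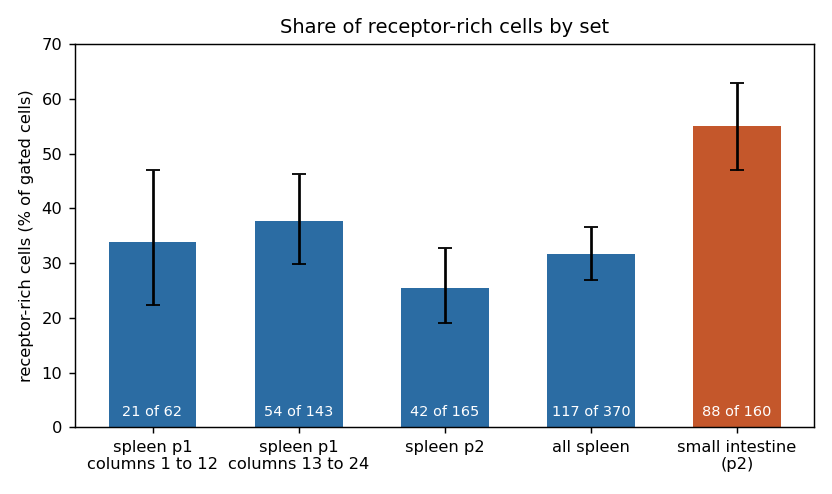
Percent of gated cells that were receptor-rich (vertical axis) in the 3 spleen sets, in all spleen cells and in the small intestine; bars start at 0, error bars are exact 95% intervals and each bar carries its number of cells. The small intestine stands at 55% and the spleen sets between 25.5% and 37.8%.

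Havcr2 and Pdcd1 separated receptor-rich from receptor-poor cells. Lag3 and Tigit were read in at least 94.1% of cells of each group. Havcr2 was read in 96.6% of receptor-rich and 6.32% of receptor-poor spleen cells, and in 95.5% and 37.5% of small intestine cells. Pdcd1 was read in 100% of receptor-rich and 64.8% of receptor-poor spleen cells, and in 95.5% and 41.7% of small intestine cells. Itga2 was the rarest receptor, read in 26.1% (17.3 to 36.6) of receptor-rich small intestine cells and 7.69% (3.58 to 14.1) of receptor-rich spleen cells. Most receptor-rich cells lacked Itga2 alone, which held for 65 in the small intestine and for all but 9 in the spleen. All 5 receptors were read in 14 small intestine and 5 spleen cells.

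At the edge of the gate, Havcr2 was read in 8.48% of spleen cells with 3 receptors and in 96.4% of those with 4, and in 46.6% and 94.6% of such small intestine cells. Spleen cells with 3 receptors had a median of 3373 genes and those with 4 a median of 3834.5, against 3215 and 3251 in the small intestine. The weakest receptor had only 1 or 2 reads in 19 receptor-rich small intestine cells and 13 receptor-rich spleen cells. The receptors chose these cells, so their levels are a description. In receptor-rich small intestine and spleen cells, mean Lag3 was 1648 and 3480 CPM, mean Tigit 1249 and 3058 CPM, and mean Pdcd1 460.8 and 1116 CPM. Median Havcr2 was 331.9 and 442.4 CPM. The 5 genes were left out of everything that follows.

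Across genes, receptor-rich cells of the tissues differed for a minority of genes. Of 8554 genes with a read in at least 10% of receptor-rich cells of both tissues together, 3.82% were called higher and 5.66% lower in the small intestine. A call needed at least a 2-fold ratio of (mean CPM + 1) against all receptor-rich spleen cells and against each of the 3 spleen sets, with each cell weighted equally. It is a rule of size and not a test. By the ratio against all receptor-rich spleen cells alone, 20.4% of tested genes differed at least 2-fold, so the called shares also reflect the rule. The median log2 ratio of all tested genes was -0.17. Scaling by TMM or by DESeq2 size factors shifted that median by 0.14 and 0.16. The share of calls that were higher was 40.3% as computed, 52% with TMM and 51.7% with DESeq2, so the balance of calls depends on the scaling.

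**Figure D2:**
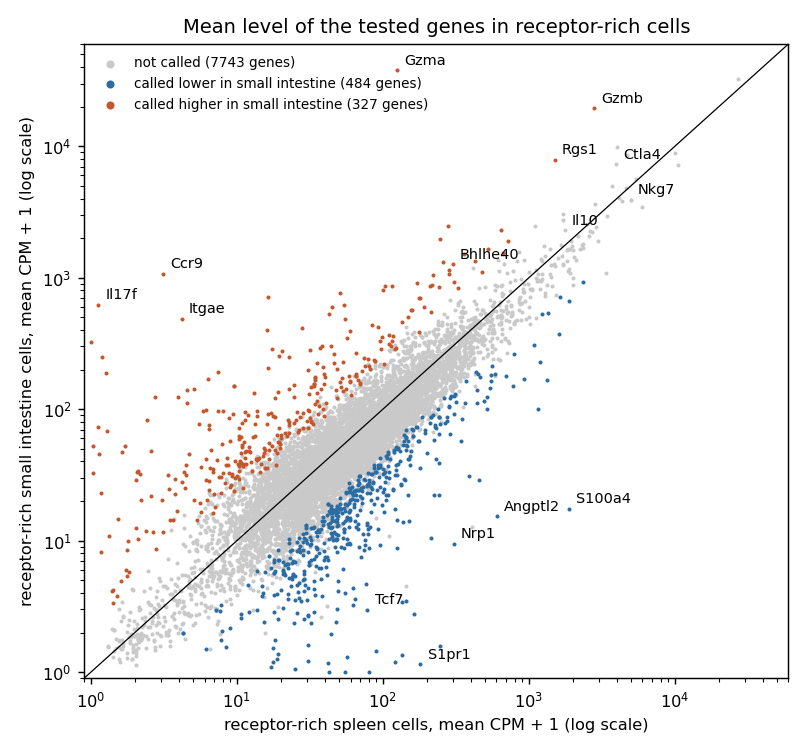
Mean CPM + 1 of each tested gene in receptor-rich spleen cells (horizontal, log scale) and receptor-rich small intestine cells (vertical, log scale); each point is 1 gene, colours mark calls and the line marks equal levels. Gzma, Ccr9, Itgae and Il17f lie far above the line, S100a4, S1pr1 and Nrp1 far below it, and Il10 and Nkg7 near it.

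The spread of the log2 ratios, their standard deviation over tested genes, was 0.98 between receptor-rich cells of the tissues. Against single spleen sets it was 1.42 (p1 columns 1 to 12, 21 cells), 1.05 (p1 columns 13 to 24, 54 cells) and 1.12 (p2, 42 cells). Between spleen sets it was 1.09 for p1 columns 1 to 12 over columns 13 to 24, 1.15 for p1 columns 1 to 12 over p2, and 0.85 for p1 columns 13 to 24 over p2. The set of 21 cells had a larger spread against the small intestine than against either other spleen set. The 2 larger sets had a larger spread against the small intestine than against each other, and a smaller one than against the set of 21 cells. Means over fewer cells scatter more. Receptor-rich over receptor-poor cells of 1 tissue gave a spread of 0.58 for spleen and 0.65 for small intestine.

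Most of the called genes also differed between the tissues in receptor-poor cells, which are other cells from the same plates. Of the genes called higher, 69.4% were at least 2-fold higher in receptor-poor small intestine than receptor-poor spleen cells, against 7.93% of all tested genes. Of those called lower, 61.8% were at least 2-fold lower, against 16.2% of all tested genes. The opposite 2-fold difference was found for 4 and 2 of them.

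Some granule genes of cytotoxic cells were called higher in the small intestine. Granzymes are proteases that kill target cells once perforin has opened a way in. Of 12 tested members of the list, 4 were called higher, 0 lower and 8 not called, with a median log2 ratio of 1.16. Over all tested genes 3.82% were called higher and 5.66% lower. Gzma (granzyme A) averaged 38038 CPM in receptor-rich small intestine cells (lowest 4.76, median 35213, highest 243311) and 123.8 CPM in receptor-rich spleen cells (lowest 0, median 0, highest 5587), a 307.3-fold ratio. The ranges overlapped, while the small intestine median lay above the highest spleen cell. The summed reads were 1108166 and 4986. Every small intestine cell had a Gzma read, against 38.5% of spleen cells.

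Spleen sets differed in Gzma. Receptor-rich cells with a Gzma read made up 0% of p1 columns 1 to 12, 11.1% of p1 columns 13 to 24 and 92.9% of p2, the plate that also held the small intestine cells. At 10 or more reads the shares were 0%, 7.41% and 16.7% in the spleen sets and 85.2% in the small intestine. The set means were 0, 16.1 and 324.1 CPM. The part of the shared plate in the Gzma reads of spleen cells was not tested.

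Gzmb (granzyme B) was high in both tissues. It averaged 19516 CPM in receptor-rich small intestine cells (6.47 to 63000 CPM, median 15336) and 2790 CPM in receptor-rich spleen cells (0 to 20218 CPM), a 6.995-fold ratio, with 2781, 2209 and 3542 CPM in the 3 spleen sets. The groups overlapped. Its mean was 609 CPM in receptor-poor spleen cells and 18398 CPM in receptor-poor small intestine cells.

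Serpinb9 and Serpinb6b encode inhibitors of the family that protects cells from granule proteases. Serpinb9 was 3.14-fold higher in receptor-rich small intestine cells (1650 CPM) and Serpinb6b 3.57-fold higher (2312 CPM). Both have close copies in the mouse genome, so their values are uncertain where reads could be shared. Not called were Prf1 (perforin), at 291.4 and 151.6 CPM in small intestine and spleen, Fasl at 419.9 and 142.2 CPM, Gzmk at 323.9 and 159.4 CPM, and Nkg7 at 3925 and 4994 CPM. For 11 of 12 tested members the mean of receptor-rich spleen cells lay between those of receptor-poor spleen and receptor-rich small intestine cells. The exception was Nkg7. Over all tested genes that order held for 42.9%. The order has no limit on size, so Srgn counts, with 4613, 4660 and 4774 CPM in those groups from spleen to small intestine. It rests on all spleen sets together. On p1 columns 1 to 12 Gzma went from 18.4 CPM in receptor-poor to 0 CPM in receptor-rich cells. These limits hold for every later count of this order.

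Adhesion and residency genes of the gut made up the next group. Of 12 tested members, 5 were called higher, 2 lower and 5 not called, against 3.82% higher and 5.66% lower of all tested genes. The median log2 ratio of the members was 0.79. Ccr9, the receptor for the chemokine CCL25 of the small intestine, averaged 1074 CPM in receptor-rich small intestine cells (0 to 5261 CPM, median 820) and 2.12 CPM in receptor-rich spleen cells (0 to 226.3 CPM, median 0), a 506.3-fold ratio. It was read in 92.05% and 5.98% of cells. Itgae, the CD103 subunit that binds E-cadherin of the epithelium, averaged 486.6 CPM (0 to 2437 CPM) and 3.17 CPM (0 to 92.9 CPM), a 153.3-fold ratio. Both genes overlapped between the tissues, in cells with few or no reads. Itga1, a collagen-binding integrin subunit, averaged 168.9 and 5.30 CPM.

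Of the genes that hold cells in tissue, Rgs1, which damps chemokine receptor signalling, was read in every receptor-rich small intestine cell at a mean of 7888 CPM (294.5 to 34135 CPM, median 6144) and in 88.9% of receptor-rich spleen cells at a mean of 1498 CPM (0 to 12120 CPM, median 805). Cd69, which opposes S1PR1, averaged 860 and 102.7 CPM. Itgb1 and Itga4, integrin subunits that pair with each other, were lower, Itgb1 at 30.1 CPM in small intestine against 390.3 CPM in spleen cells and Itga4 at 182.8 against 587 CPM. Cxcr6, another residency marker, was not called (1330 and 1820 CPM).

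Receptor-rich and receptor-poor spleen cells differed in these gut genes in both directions, with a median log2 ratio of 0.20 over the 12 members. Ccr9 averaged 63.2 CPM in receptor-poor and 2.12 CPM in receptor-rich spleen cells, and Itgae 5.29 and 3.17 CPM. Rgs1 averaged 520.5 and 1498 CPM and Cxcr6 430.2 and 1820 CPM. Receptor-rich spleen cells lay between receptor-poor spleen cells and the small intestine for 3 of 12 tested members, Itga1, Rgs1 and Gpr55. Over all tested genes that order held for 42.9%. Itga1 was read in 4.27% of receptor-rich spleen cells and in none of those on p1 columns 1 to 12.

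Some genes of circulation and lymphoid homing were called lower in the small intestine. Of 12 tested members, 0 were called higher, 5 lower and 7 not called, against 3.82% higher and 5.66% lower of all tested genes. The median log2 ratio of the members was -2.32. S1pr1, the receptor that lets T cells leave tissue toward the blood, averaged 0.153 CPM in receptor-rich small intestine cells (0 to 5.63 CPM, median 0, 5 summed reads) and 179.9 CPM in receptor-rich spleen cells (0 to 1553 CPM, median 2.63, 7655 summed reads). It was read in 4.55% and 53.8% of cells.

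Klf2, a factor that turns on S1pr1, averaged 7.47 CPM in receptor-rich small intestine cells and 72.9 CPM in receptor-rich spleen cells. Tcf7 (TCF-1), a factor of memory-like T cells, averaged 1.97 and 77.3 CPM, and Il6ra, a subunit of the interleukin-6 receptor, 0.163 and 41.3 CPM. Ccr7 had a mean of 36.6 CPM in receptor-rich spleen cells, of which p2 held most (101.7 CPM, against 0.125 and 0.216 CPM in the p1 sets), and it was not called. Receptor-rich spleen cells lay between receptor-poor spleen and small intestine for 10 of 12 members, against 42.9% of all tested genes. Ccr7 was among the 10, although on both p1 sets its mean lay below the 1.60 CPM of receptor-rich small intestine cells. Tcf7, for example, averaged 622 CPM in receptor-poor spleen cells and S1pr1 416.2 CPM.

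**Figure D3:**
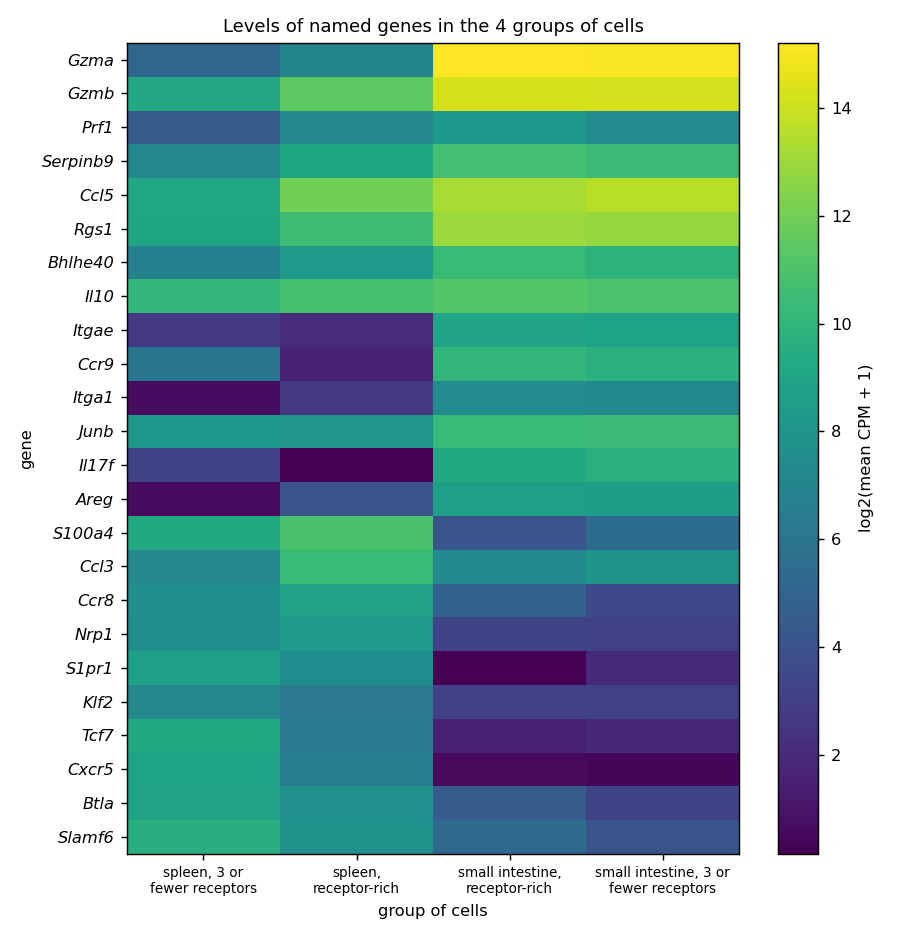
Log2 of (mean CPM + 1), shown by colour, for 24 genes (rows) in 4 groups of cells (columns: receptor-poor and receptor-rich spleen, receptor-rich and receptor-poor small intestine). The columns of the small intestine look alike, while Gzmb, Ccl5 and Rgs1 step up and Tcf7, Cxcr5 and Slamf6 step down from receptor-poor to receptor-rich spleen cells.

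Genes of follicular helper T cells, which assist B cells, were also mostly lower. Of 8 tested members, 1 was called higher, 5 lower and 2 not called, against 3.82% higher and 5.66% lower of all tested genes. The median log2 ratio of the members was -2.26. Cxcr5, the receptor that draws cells into B cell follicles, averaged 0.454 CPM (0 to 19.8 CPM) in receptor-rich small intestine cells and 88.2 CPM (0 to 1465 CPM) in receptor-rich spleen cells. Btla was 10.5-fold and Slamf6 5.63-fold lower. Il21, the helper cytokine, averaged 34.7 and 178.5 CPM and lost its call under both other scalings. Bcl6, the factor of this lineage, was the member called higher, at 10.9 and 1.38 CPM.

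Il10 itself was not called. It averaged 2306 CPM in receptor-rich small intestine cells (0 to 10333 CPM, median 1586) and 1756 CPM in receptor-rich spleen cells (0 to 20384 CPM, median 1100), with 1906, 2149 and 1175 CPM in the 3 spleen sets. Of 18 tested members of the list of Il10 and factors linked to it, 1 was called higher, 0 lower and 17 not called. Over all tested genes 3.82% were called higher and 5.66% lower. The count is near these shares and says little about the list. Bhlhe40, which restrains Il10, was the member called, at 1266 CPM in the small intestine (0 to 5032 CPM, median 951) and 299.4 CPM in the spleen (0 to 1881 CPM, median 112.4). Maf averaged 570 and 639 CPM, Prdm1 (Blimp-1) 337.6 and 297.3 CPM, and Batf 528.4 and 471.7 CPM. For 15 of the 18 members, receptor-rich spleen cells lay between receptor-poor spleen and small intestine, against 42.9% of all tested genes. Some steps were small, as for Maf, which averaged 651.6 CPM in receptor-poor spleen cells.

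Other receptors of the co-inhibitory and costimulatory kind gave 4 members called higher, 2 lower and 8 not called of 14 tested. Over all tested genes 3.82% were called higher and 5.66% lower. The median log2 ratio of the 14 members was 0.64. Cd244 was read in 22.7% of receptor-rich small intestine cells and 0.855% of receptor-rich spleen cells (71.8 and 0.117 CPM). Cd160 averaged 229.5 and 52.1 CPM and Cd96 504.3 and 148.3 CPM, and Lilrb4, which has a close copy, was 2.58-fold higher. Entpd1 (CD39), which breaks down extracellular ATP, averaged 75.8 and 244.1 CPM, and Cd28 263.7 and 784 CPM. Ctla4 was high in both tissues and not called (7325 and 3944 CPM).

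Cytokine genes split by tissue in a part of the cells. A read of Il17a, Il17f or Il22, cytokines that act on the epithelium, was found in 34 of 88 receptor-rich small intestine cells, 38.6% (28.4 to 49.6), and in 4 receptor-rich spleen cells, 3.42% (0.939 to 8.52). Il17f averaged 623 CPM in the small intestine cells with a highest cell of 17801 CPM and a median of 0, and it had 3 summed reads in receptor-rich spleen cells. Il22 had no read in receptor-rich spleen cells, where 0 allows up to 2.56% of cells by a limit of 3 cells and 3.10% by the exact interval, and averaged 131.6 CPM in the small intestine, at least 1783-fold above the level of 3 reads over all receptor-rich spleen cells. Too few receptor-rich cells had an Il22 read for that gene to be among the tested ones. Areg (amphiregulin), a repair factor, averaged 396.1 and 15.1 CPM and was read in 22.7% and 5.13% of cells. Receptor-poor small intestine cells had a read of Il17a, Il17f or Il22 in 27.8% (17.9 to 39.6) and of Areg in 23.6%. In receptor-poor spleen cells these shares were 6.32% and 3.16%. The split by tissue was thus not particular to receptor-rich cells.

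Type 2 cytokines went the opposite way. A read of Il4, Il5 or Il13 was found in 22 receptor-rich spleen cells, 18.8% (12.2 to 27.1), and in 0 of 88 from the small intestine, a count that allows up to 3.41% by the limit of 3 cells and 4.11% by the exact interval. In the spleen 19 of these 22 cells lay on p1 columns 13 to 24, where the share was 35.2% (22.7 to 49.4), against 9.52% on p1 columns 1 to 12 and 2.38% on p2. These values rest on that set, and Il4, Il5 and Il13 had reads in too few cells to be among the tested genes. Ifng, the type 1 cytokine, was read in 78.4% of receptor-rich small intestine and 70.1% of receptor-rich spleen cells, at 534.9 and 707 CPM, and was not called.

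Of the chemokine ligands and receptors, 0 of 7 tested members were called higher, 3 lower and 4 not called. Over all tested genes 3.82% were called higher and 5.66% lower. Ccl3, which draws immune cells to activated ones, averaged 164.7 CPM in receptor-rich small intestine cells (0 to 1614 CPM, median 0) and 1332 CPM in receptor-rich spleen cells (0 to 11354 CPM, median 62.5). The ranges overlapped. Ccr8 averaged 27.7 and 453.2 CPM, and Cx3cr1 8.26 and 93.99 CPM. Ccl5 was high in both tissues (9841 and 4030 CPM) and not called, though both other scalings called it higher.

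Immediate early genes, which respond within minutes to stimulation or to tissue handling, were called higher in 4 of 11 tested members. None was called lower. Over all tested genes 3.82% were called higher and 5.66% lower. Junb averaged 1315 CPM (190.9 to 4817 CPM) in receptor-rich small intestine cells and 255.8 CPM (0 to 1358 CPM) in receptor-rich spleen cells. Dusp1 was 4.81-fold, Nr4a1 3.62-fold and Jun 3.42-fold higher. Fos was not called (302.2 and 152.6 CPM), nor was Egr1 (127.2 and 315.9 CPM).

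Of the 16 tested proliferation genes 4 were called lower and 0 higher, against 5.66% and 3.82% of all tested genes. All 16 members of the S and G2M list had log2 ratios below 0, from -1.72 to -0.38 and at most -0.22 under TMM or DESeq2 scaling, and the 4 called were Tyms, Rrm2, Mcm2 and Pcna. Cells with a read in 8 or more of these genes made up 22.7% (14.5 to 32.9) of receptor-rich small intestine cells and 46.2% (36.9 to 55.6) of receptor-rich spleen cells. Of 10 tested glycolysis genes 2 were called lower, Tpi1 at 90.8 and 305.2 CPM and Pgk1 at 9.25 and 21.8 CPM, and Pgk1 lost the call under both other scalings. Several glycolysis genes have many pseudogenes, and their values are uncertain.

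Among CD8 and natural killer receptors 2 of 5 tested members were called higher, against 3.82% of all tested genes. Cd8a was read in 26.1% of receptor-rich small intestine cells (mean 248.9 CPM) and 1.71% of receptor-rich spleen cells (0.198 CPM), and in the gut some CD4+ T cells carry it. Cd7 averaged 711 and 15.4 CPM. Of 8 tested interferon-stimulated genes 1 was called lower, Usp18, against 5.66% of all tested genes. A single call in so short a list says little about the list. Of 6 genes of regulatory T cells 1 was called higher, Ikzf4, and 2 lower, Folr4 and Nrp1 (8.47 CPM in small intestine, a 35.9-fold lower level than in spleen).

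The 15 called genes with the largest ratio on each side held further genes outside the lists. Gpr34, a lysophospholipid receptor, averaged 188.3 CPM in receptor-rich small intestine and 0.272 CPM in receptor-rich spleen cells, and was read in 40.9% and 2.56% of them. Dtx4, Pde5a, Dapk2, St6galnac2, Ddx60 and Spsb1 averaged between 31.9 and 122.7 CPM in the small intestine and at most 1.73 CPM in the spleen, where Pde5a and Spsb1 had a single read.

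On the spleen side, S100a4, a calcium-binding protein linked to cell motility, averaged 1872 CPM in receptor-rich spleen cells (0 to 9285 CPM, median 1384) and 16.45 CPM in receptor-rich small intestine cells (0 to 233.6 CPM, median 0). The 3 spleen sets stood at 1467, 1947 and 1978 CPM. St6gal1, a sialyltransferase, averaged 244.5 CPM in spleen and 0.584 CPM in small intestine cells, and Angptl2, a secreted protein, 602 and 14.4 CPM. Ramp1, Itih5 and Lif had no read in receptor-rich small intestine cells. Their spleen means of 79.6, 53.9 and 42.04 CPM were at least 748, 506.1 and 394.9 times the level of 3 reads over all receptor-rich small intestine cells. Ly6c2, which has close copies, averaged 133.7 and 0.348 CPM, and Gpm6b, Cd9, Sema4a and F2rl2 also stood among these 15 genes.

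Whether receptor-rich spleen cells lay closer to the small intestine was described cell by cell. Closeness was the Spearman correlation of a cell with the mean profile of receptor-rich small intestine cells, minus its correlation with the mean profile of receptor-poor spleen cells of the other spleen sets, over the 8554 tested genes. Receptor-rich spleen cells had a median of -0.0341 (quartiles -0.0615 and -0.0202) and receptor-poor spleen cells a median of -0.0533 (quartiles -0.0757 and -0.0361). Receptor-rich small intestine cells, scored without themselves, had a median of 0.0546. The step of 0.01925 between receptor-poor and receptor-rich spleen cells was 17.8% of the way from receptor-poor spleen to receptor-rich small intestine cells. Receptor-poor spleen cells were thus scored against the mean of their own class, although of other sets. A positive step can arise where receptor-rich cells merely differ from that class. The share of each correlation in the step was not tested. The step alone therefore does not show a move toward the small intestine.

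The step was not the same in each spleen set. It was 0.00348 on p1 columns 1 to 12 (21 receptor-rich and 41 receptor-poor cells), 0.0318 on p1 columns 13 to 24 (54 and 89 cells) and 0.00745 on p2 (42 receptor-rich cells), or 3.31%, 28.5% and 7.47% of the way. All 3 steps had the same sign. Without p1 columns 13 to 24 the step over the other sets, with the scores as they stand, was 0.00737 (63 receptor-rich cells), and it was 0.0137 when the remaining cells were scored again against reference profiles that also left that set out. Closeness above 0 was reached by 6 receptor-rich and 2 receptor-poor spleen cells, and by 83 of 88 receptor-rich small intestine cells. In the small intestine receptor-poor cells had a median of 0.0545, which differed from that of receptor-rich cells by 9.51e-05.

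Receptor-rich spleen cells also held more genes with a read than receptor-poor ones (medians 3826 and 3294) and more cycling cells (46.2% and 26.1%). Without the cycling cells the step was 0.0265, and after thinning every cell to 160000 reads it was 0.0202.

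**Figure D4:**
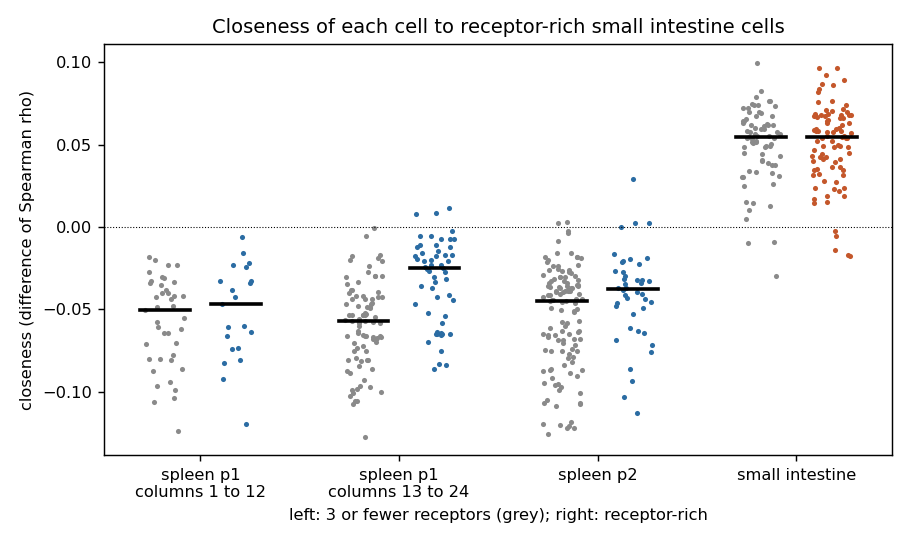
Closeness of each cell (vertical axis, difference of 2 Spearman correlations) in the 3 spleen sets and the small intestine, receptor-poor cells on the left in grey and receptor-rich cells on the right; black lines are medians. The receptor-rich medians lie above the receptor-poor ones in each spleen set, most on p1 columns 13 to 24, and 20.5% of receptor-rich spleen cells reach the lowest receptor-rich small intestine cell at -0.0173.

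By the number of receptors, spleen cells with 2, 3, 4 and 5 receptors had median closeness of -0.0489, -0.05585, -0.0342 and -0.0224, the last over 5 cells. Cells with 3 receptors had a higher median than those with 2 in both p1 sets and a lower one on p2, which held 44 of the 65 cells with 2. The means of whole groups, compared with the small intestine without subtracting a spleen profile, gave a less steady picture. The mean of receptor-rich spleen cells had a Spearman correlation of 0.842 with that of receptor-rich small intestine cells, and the mean of receptor-poor spleen cells one of 0.822, over 8554 genes, a difference of 0.01975. It was -0.0194 on p1 columns 1 to 12, 0.0263 on p1 columns 13 to 24 and 0.00261 on p2, so the sign was not shared by the sets. These means rest on unequal numbers of cells. The mean of receptor-poor small intestine cells had a correlation of 0.931.

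A further comparison chose genes in some cells and read them in others, although the 10% filter behind the tested genes was set on receptor-rich cells of all plates. On p2, 3% of tested genes were at least 4-fold higher and 3.04% at least 4-fold lower in receptor-rich small intestine cells than in receptor-poor spleen cells. These genes were then read on p1, in receptor-rich over receptor-poor spleen cells. Receptor-poor spleen cells were thus the reference of both ratios, although they were other cells. Genes chosen for an extreme level in that class can lean the same way in any other spleen cells. The shares alone therefore do not show a move toward the small intestine. Of the high genes, 71.98% were higher in receptor-rich p1 cells, against 46.2% of all tested genes. Of the 260 low genes, 74.2% were lower, against 53.8% of all tested genes. With the filter set on all gated cells instead, an alternative chosen after seeing the data, the shares were 72.6% and 77.6%. On p1 columns 1 to 12 they were 55.3% and 63.5%, against 46.8% and 52.9% of all tested genes, and on p1 columns 13 to 24 they were 71.6% and 76.9%, against 46.4% and 53.5%. The median log2 ratio of receptor-rich over receptor-poor p1 cells was 0.62 for the high genes, -0.49 for the low ones and -0.05 for all tested genes.

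**Figure D5:**
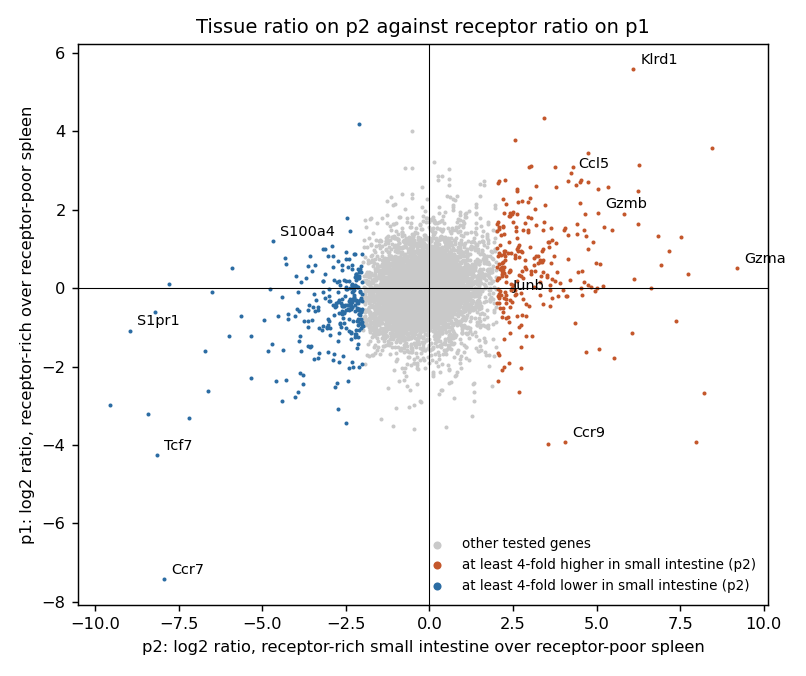
For each tested gene, the log2 ratio of receptor-rich small intestine over receptor-poor spleen cells on p2 (horizontal) and of receptor-rich over receptor-poor spleen cells on p1 (vertical); colours mark genes at least 4-fold higher or lower on p2. Klrd1, Ccl5 and Gzmb lie high on both axes and Ccr7 and Tcf7 low on both, while Ccr9 is high on p2 and low on p1.

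Cytotoxic and homing genes were among those with the same direction in both. Of the genes high in the small intestine, 51 (19.8%) were at least 2-fold higher in receptor-rich cells of both p1 sets, against 2.29% of all tested genes. They included Ccl5 (561.6, 4030 and 9841 CPM in receptor-poor spleen, receptor-rich spleen and receptor-rich small intestine cells), Prf1 (22.55, 151.6 and 291.4 CPM) and Klrd1, a natural killer receptor (0.802, 74.1 and 124.5 CPM), and also Gzmb, Serpinb9, Rgs1 and Bhlhe40. Of the low genes, 43 (16.5%) were at least 2-fold lower in receptor-rich cells of both p1 sets, against 2.79% of all tested genes, among them Tcf7, Ccr7, Cxcr5, Slamf6 and Btla.

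Some genes parted the tissues without following the receptors, in shares near or below those of all tested genes. Of the high genes, 37 (14.4%) were lower by any amount in receptor-rich cells of both p1 sets, against 31.5% of all tested genes. Among them were Ccr9, Gpr34, Dtx4 and Junb, the last with a log2 ratio of only -0.18 over p1. At least 2-fold lower in both p1 sets were 8 high genes (3.11%), against 2.79% of all tested genes. The reverse at 2-fold, low in the small intestine but higher in receptor-rich cells of both p1 sets, was found for 4 genes. They were 1.54% of the low genes, against 2.29% of all tested genes. These were S100a4, Cyp4f13, Zfp865 and Bspry, of which the last 3 were named after their values were seen. S100a4 averaged 624 CPM in receptor-poor spleen, 1872 CPM in receptor-rich spleen and 16.45 CPM in receptor-rich small intestine cells. Ccl3 averaged 153.9, 1332 and 164.7 CPM in the same groups.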

How the data were processed

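Single IL-10+ CD4+ T cells from spleen (574) and small intestine (190) of anti-CD3-treated mice were sequenced with SMART-seq2. The authors aligned reads with STAR and deposited raw read counts per gene (23997 gene rows and a reporter row). The counting tool and annotation are not given in the sources used here, and the study's methods and processing notes name different genome builds, so no positions are given. Of the rows, 88 join several genes under 1 name.

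CPM was computed over gene rows without the reporter (Python 3.11.15, numpy 2.4.6, scipy 1.17.1, pandas 2.3.3), and scaling factors with edgeR 4.0.16 and DESeq2 1.42.0. Log2 ratios have a pseudocount of 1 CPM, which understates those of low genes. The functions were tested on simulated data. Receptor-rich cells numbered 88 in the small intestine and 117 in the spleen (205 in all), and receptor-poor cells 72 and 253. Calls were 327 genes higher and 484 lower (407 and 376 with TMM, 405 and 378 with DESeq2), and 257 and 260 genes were 4-fold higher and lower on p2. With 1 sample a tissue there is no test. Intervals are exact at 95% and a floor is 3 reads, or 3 cells for a share. Named genes are those of chosen lists plus the 15 called genes with the largest ratio in each direction. Some genes that this rule names are not reported here. Members, lists and rules were chosen with earlier results of these data known. Doublet callers were not run, since cells were sorted singly. Alternatives changed 1 choice at a time: depth, receptor reads, cell filters, gene filter, pseudocount, averaging, scaling, fold and spleen sets.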

Additional observations from a re-analysis of the deposited data

Results flagged for a closer look

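The reporter row was outside every comparison. An eGFP read was found in 77.3% (67.1 to 85.5) of receptor-rich small intestine cells and 66.7% (57.4 to 75.1) of receptor-rich spleen cells, and in 73.6% and 48.6% of receptor-poor cells. Cells with a Foxp3 read were left out by the gate, and some of them had a read in 4 or more receptors. They were 53 cells in the spleen, 30.5% of those with a Foxp3 read (23.7 to 37.9), and 5 of 15 in the small intestine, 33.3% (11.8 to 61.6). Both are given here because no comparison used these reads.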

How the results depend on the processing

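Of 97 values under 19 alternatives, 87 stayed within the spread of sets, the counting interval or 1.5 times the count, and 10 moved beyond it. None reversed direction, but only the step in closeness, the difference of group means and the shares of p2-chosen genes could do so. Counts of calls, percents receptor-rich and spreads have no sign to change. Spleen p1 columns 1 to 12 alone, where the difference of group means was -0.0194, was not among the alternatives. The spread of sets was 0.0154 for the step in closeness (0.01925) and 0.0229 for the difference of group means (0.01975). Limits so wide count much smaller values as unchanged, so staying within them says little about these results. No paired analysis was possible because the results come from no test. With a receptor counted from 3 reads, 43.8% of small intestine cells were receptor-rich. A pseudocount of 10 CPM, which shrinks ratios of low genes, gave 3.15% of genes called lower and a spread of 0.72. Without a filter on low genes 1025 (6.87%) were called higher. A 4-fold limit called 1.19% higher and 1.25% lower. With p2 spleen cells only, 25.5% of spleen cells were receptor-rich, and 963 genes (11.26%) were called higher and 1239 (14.48%) lower, where only 1 set had to pass. Without spleen p1 columns 13 to 24, 6.49% were called higher. Under these alternatives the step in closeness ranged from 0.00745 (p2 only) to 0.0265, and without p1 columns 13 to 24 it was 0.0137 with new reference profiles and 0.00737 with the scores as they stood. The difference of group means without that set was 0.00361. It was 0.00261 on p2. The gene filter on all gated cells was chosen after seeing the data. The single sample a tissue limits every comparison, and depth limits genes with few reads.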
